A study of Mus musculus and Homo sapiens with 21 samples.

Results

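The EGF receptor family and its ligands were followed as 9 genes, chosen by name: the receptors *EGFR*, *ERBB2* and *ERBB3*, the EGFR ligands *EGF*, *TGFA*, *AREG*, *EREG* and *BTC*, and the ERBB3 ligand *NRG1*. All 9 symbols were found among 58735 genes of the human table and, in title case, among the 54532 genes of each mouse table. RNA was sequenced from 21 libraries, 3 for each of 7 groups. The human cells, MDA231BrM2, were selected from the triple-negative breast cancer (TNBC) line MDA-MB-231 for homing to the brain, and the mouse cells were 4T1, a mammary line used as a murine model of TNBC. The human groups were MDA231BrM2-CTL, which received a scramble guide RNA, and MDA231BrM2-ΔIL13RA2, in which the interleukin 13 (IL13) receptor *IL13RA2* was targeted with CRISPR. The untreated mouse groups were 4T1-CTL, 4T1-ΔIl13ra2 and 4T1-ΔIl13ra1, the last targeted in the other IL13 receptor chain. 4T1-CTL and 4T1-ΔIl13ra2 were also grown with murine IL13 at 20 ng/mL. All cells were plated at 100000 per well and kept for 48 h. Both parental lines carried luciferase, and MDA231BrM2 also carried GFP.

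The ΔIL13RA2 lines were pools and not single clones, made with 3 guides and sorted for a fluorescent marker. MDA231BrM2-ΔIL13RA2 was sorted again for receptor-negative cells, which was not done for 4T1-ΔIl13ra2. The making of 4T1-ΔIl13ra1 is not described in the sources used here. The sample labels do not say that replicates were separate cultures, so p-values measure the spread between libraries, which may be technical.

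EGFR, ERBB2 and ERBB3 are receptor tyrosine kinases that signal as pairs through the RAS-MAP kinase and PI3K-AKT pathways. EGFR binds EGF, TGFA, AREG, EREG and BTC, which are made as membrane-anchored precursors and cut free by metalloproteases. ERBB2 has no known ligand of its own, while ERBB3 binds neuregulins such as NRG1 and has little kinase activity, so it relies on a partner such as ERBB2. In breast cancer ERBB2 is known as HER2, EGFR is often abundant in basal-like tumors, and autocrine EGFR ligands are a common feature of tumor cell lines.

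Values are FPKM, read fragments scaled by gene length and by library size, so that levels of genes in one table can be compared per length. Reads on genes ran from 14744736 to 21762025 per library (median 17274112). Each of the 3 tables had been scaled on its own, so levels were not tested across tables. *IL13RA2* was measured at 15.1, 15.2 and 18.5 FPKM in MDA231BrM2-CTL and at 11.4, 13.7 and 11.4 in MDA231BrM2-ΔIL13RA2 (log2 fold change −0.39, adjusted p = 0.0246, limma), so its mRNA was still present, and the call was lost with no minimum FPKM. *Il13ra2* had 0 to 6 reads per library in untreated 4T1, too few to check those labels. With IL13 the control libraries held 13.4, 13.1 and 16.2 FPKM of it and the 4T1-ΔIl13ra2 libraries 7.89, 7.82 and 7.25. Untreated, *Il13ra1* had 7.82, 7.17 and 8.14 FPKM in the control and 3.49, 3.91 and 3.29 in 4T1-ΔIl13ra1. Of 7 epithelial markers, 6 had a mean of at least 1 FPKM in every group. The exception in MDA231BrM2-CTL was *CDH1*, at 0.0180, while the mesenchymal marker *VIM* was at 490.3 there. Of the receptors that define TNBC by their absence, *ESR1* was at 0.0386 and *PGR* at 0.0867 in MDA231BrM2-CTL, and *Esr1* was at 1.16 and *Pgr* at 0 in untreated 4T1-CTL. *ERBB2*, the third, was not absent as mRNA in either line, at 6.17 and 19.8 FPKM.

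The order of mRNA levels within the family differed between the 2 lines. In MDA231BrM2-CTL *EGFR* was the most abundant member, at 53.0 ± 1.35 FPKM (SD, n = 3), and was followed by *NRG1*, *ERBB2*, *TGFA*, *EREG*, *AREG*, *ERBB3*, *BTC* and *EGF*. The library ranges of *NRG1* and *ERBB2*, of *EREG* and *AREG*, and of *BTC* and *EGF* overlapped, so those neighbours in the order did not differ beyond their spread. In untreated 4T1-CTL *Erbb2* (19.8 ± 1.10, n = 3) and *Erbb3* (12.5 ± 0.913) led, followed by *Tgfa*, *Areg*, *Nrg1*, *Btc*, *Egfr*, *Egf* and *Ereg*, and the ranges of *Erbb3* and *Tgfa* alone overlapped. *Egfr* was near the end of that order, at 0.553 ± 0.119 FPKM (n = 3). Within single libraries *EGFR* was 7.90 to 8.94 times *ERBB2* in MDA231BrM2, and *Erbb2* was 27.4 to 41.7 times *Egfr* in untreated 4T1.

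**Figure D1:**
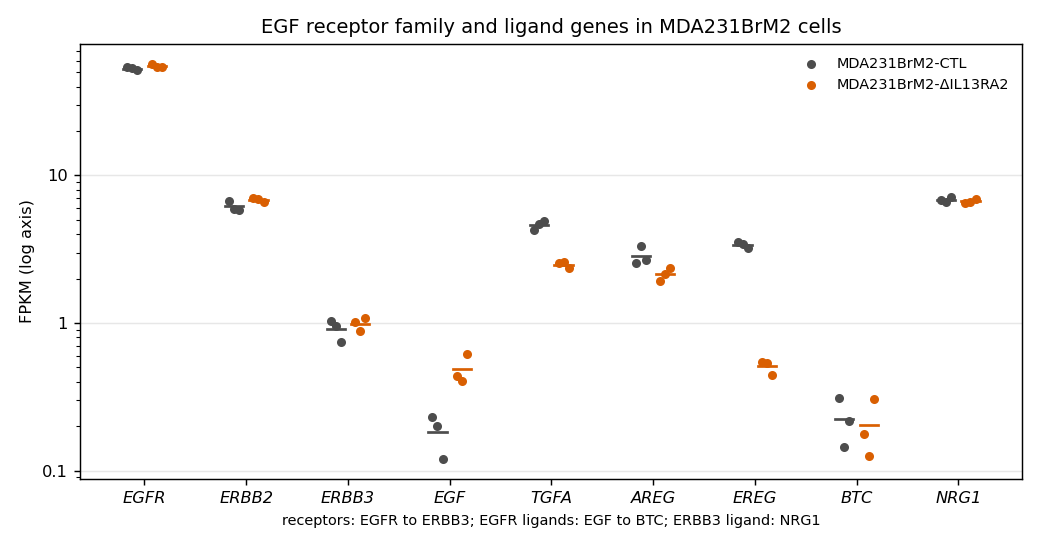
FPKM of the 9 genes in each MDA231BrM2 library (points, log axis), with the mean of each group of 3 as a bar. *EREG* fell from 3.23 to 3.52 FPKM in MDA231BrM2-CTL to 0.443 to 0.542 in MDA231BrM2-ΔIL13RA2, and *TGFA* also lay lower without overlap, while *EGFR* stayed between 51.6 and 57.1.

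The first comparison asked how targeting *IL13RA2* altered the family in the human brain-seeking cells. The EGFR ligand genes *EREG*, *TGFA* and *AREG* fell in MDA231BrM2-ΔIL13RA2, in that order of size, and none of the 6 members tested was called higher. *EGF*, too low for that test, lay higher in the knockout. The receptors and *NRG1* did not pass the test. Of the 9 members, 6 reached a mean of 1 FPKM and were tested, and 3 of those 6 were called, all lower. Among the 11761 genes tested, 28.7% were called and 16.1% were called lower, so a fall in this comparison was common. *EREG* reached the minimum through MDA231BrM2-CTL only. Fewer cells with a transcript and less transcript per cell cannot be told apart in these bulk libraries.

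*EGFR* (ENSG00000146648, hg38 chr7:55019021-55211628), the receptor of all 5 ligands, was at 54.3, 53.1 and 51.6 FPKM in MDA231BrM2-CTL and at 57.1, 54.4 and 54.1 in MDA231BrM2-ΔIL13RA2. The groups overlapped, and the difference of 0.06 on the log2(FPKM + 1) scale was not significant (95% confidence interval −0.03 to 0.14, adjusted p = 0.284, limma). The 50 nearest tested genes of *EGFR* had a median of −0.15, and with that median removed *EGFR* was higher by 0.20 (adjusted p = 0.00817). It was also called higher on TPM (0.12, adjusted p = 0.0354, limma) and by voom without a minimum (0.07, adjusted p = 0.0281). On TPM the median of all genes tested was itself at 0.06. *ERBB2* (ENSG00000141736, chr17:39687914-39730426), the ligandless partner, was at 6.72, 5.94 and 5.84 FPKM in MDA231BrM2-CTL and at 6.99, 6.88 and 6.61 in the knockout. These overlapped as well (0.13, 95% confidence interval −0.01 to 0.27, adjusted p = 0.150, limma). *ERBB2* shares ground with *MIEN1* on the opposite strand, which was at 5.18 to 6.63 FPKM, and whether counting used strand is not given in the sources used here. *ERBB3* (ENSG00000065361), the neuregulin receptor, stayed under the minimum, at 1.03, 0.949 and 0.746 FPKM against 1.02, 0.879 and 1.08, with overlapping groups (exact permutation test, two-sided, p = 0.6).

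*EREG* (ENSG00000124882, hg38 chr4:74365143-74388751) encodes epiregulin, a ligand of EGFR and ERBB4. It was at 3.52, 3.42 and 3.23 FPKM in MDA231BrM2-CTL and at 0.542, 0.540 and 0.443 in MDA231BrM2-ΔIL13RA2. Every knockout library lay far under every control library, and the means of 3.39 ± 0.148 and 0.508 ± 0.0565 (SD, n = 3 each) differed 6.67-fold. The values rested on 287 to 301 reads per control library and 38 to 62 per knockout library. The log2(FPKM + 1) difference was −1.54 (SE 0.0695, 95% confidence interval −1.70 to −1.38, adjusted p = 1.44e-05, limma), the 13th largest fall of all genes tested. On that scale the change of a gene at this level is understated, and voom on the recovered reads gave a log2 fold change of −2.71.

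*TGFA* (ENSG00000163235, hg38 chr2:70447280-70554193) encodes transforming growth factor alpha, a high-affinity ligand of EGFR. It was at 4.26, 4.72 and 4.89 FPKM in MDA231BrM2-CTL and at 2.54, 2.58 and 2.35 in MDA231BrM2-ΔIL13RA2. The groups were well apart, with means of 4.63 ± 0.327 and 2.49 ± 0.122 (SD, n = 3 each) and a 1.86-fold difference. The log2(FPKM + 1) difference was −0.69 (SE 0.0646, 95% confidence interval −0.84 to −0.54, adjusted p = 0.000328, limma), the 127th largest fall.

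*AREG* (ENSG00000109321, hg38 chr4:74445134-74455009) encodes amphiregulin, a lower-affinity ligand of EGFR. It was at 2.55, 3.31 and 2.68 FPKM in MDA231BrM2-CTL and at 1.94, 2.15 and 2.35 in MDA231BrM2-ΔIL13RA2, from 58 to 80 reads per library. The groups did not overlap, but the gap between them was narrow. The difference was −0.29 (SE 0.0908, 95% confidence interval −0.50 to −0.08, adjusted p = 0.0489, limma), just past the threshold. This call was lost in 12 of 16 alternative analyses, among them voom on the recovered reads (adjusted p = 0.0884) and the omission of any one of the 6 libraries (adjusted p from 0.0547 to 0.126). All 3 of the ligands called, and none of the other 3 tested members, had groups that did not overlap, which held for 45.2% of all genes tested.

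The remaining members of the human table were low or did not change past the threshold. *NRG1* (ENSG00000157168) was at 6.86, 6.61 and 7.13 FPKM in MDA231BrM2-CTL and at 6.52, 6.63 and 6.94 in the knockout, with overlapping groups (−0.03, 95% confidence interval −0.15 to 0.08, adjusted p = 0.669, limma). *EGF*, the founding ligand of the family, was at 0.232, 0.200 and 0.120 FPKM in MDA231BrM2-CTL and at 0.440, 0.405 and 0.620 in MDA231BrM2-ΔIL13RA2. Its groups did not overlap, which held for 24.8% of all genes with a read, and the means differed 2.65-fold on 12 to 21 reads per control library and 49 to 57 per knockout library. Being under the minimum, *EGF* had no limma test at the settings used for the other members, and the exact permutation test gave p = 0.1, the smallest that 3 against 3 libraries allow. Without a minimum it gave an adjusted p of 0.0938 by limma and 0.000124 by voom (log2 fold change 1.40, SE 0.311). *BTC*, betacellulin, rested on 6 to 13 reads per library, at 0.313, 0.145 and 0.218 FPKM against 0.177, 0.126 and 0.308, and a difference was not detectable at this depth (exact permutation test, p = 0.7).

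Genes of the family outside the 9 included one further abundant EGFR ligand. *HBEGF*, the heparin-binding ligand, was at 24.7, 24.2 and 22.1 FPKM in MDA231BrM2-CTL and at 23.9, 21.9 and 20.5 in MDA231BrM2-ΔIL13RA2, with overlapping groups (−0.10, adjusted p = 0.307, limma). The 5 EGFR ligand members summed to 10.9, 11.8 and 11.1 FPKM in the control libraries and to 5.64, 5.80 and 6.07 in the knockout libraries. *EREG* made up 29.0% to 32.4% of that sum in MDA231BrM2-CTL and 7.30% to 9.61% in the knockout. With *HBEGF* counted as a 6th ligand, its share of the sum was 66.5% to 69.4% in MDA231BrM2-CTL and 77.1% to 81.0% in the knockout. The neuregulin *NRG2* was at 0.630, 0.814 and 0.855 FPKM in the control and 0.309, 0.325 and 0.398 in the knockout, with groups apart but under the minimum (adjusted p = 0.0460 by limma without a minimum). *ERBB4*, *EPGN*, *NRG3* and *NRG4* had at most 6 reads in any human library.

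Marker genes of cell state and cell type are given for the same comparison without a test. The 7 epithelial markers summed to 293.3 to 311.3 FPKM in MDA231BrM2-CTL and 287.9 to 295.6 in MDA231BrM2-ΔIL13RA2, which overlapped. Means of *EPCAM* (2.85 and 3.76) and *KRT8* (70.6 and 81.2) were higher in the knockout. Those of *KRT18*, *KRT19*, *CLDN4* and *CLDN7* were lower, and *CDH1* was near 0. Summed over 5 mesenchymal markers, FPKM was 540.0 to 560.6 in the MDA231BrM2-CTL libraries and 486.0 to 501.8 in MDA231BrM2-ΔIL13RA2, with 4 of the 5 at a mean of at least 1 and *CDH2* near 0. The sum followed *VIM* (means of 490.3 and 432.8), and *SPARC* was also lower without overlap, while the means of *FN1* (35.2 and 37.2), *ZEB1* (7.50 and 9.36) and *CDH2* (0.0605 and 0.130) were higher in the knockout. Summed over 4 endothelial markers it was 3.14 to 3.56 and 2.25 to 2.72, nearly all from *KDR*, while *PECAM1*, *CDH5* and *TEK* had means of at most 0.134. Groups without overlap, as for *VIM* and *SPARC*, occurred in 45.2% of all genes tested. The part of these markers in the fall of the ligands was not tested. Immune markers summed to at most 0.282 FPKM in any human library.

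**Figure D2:**
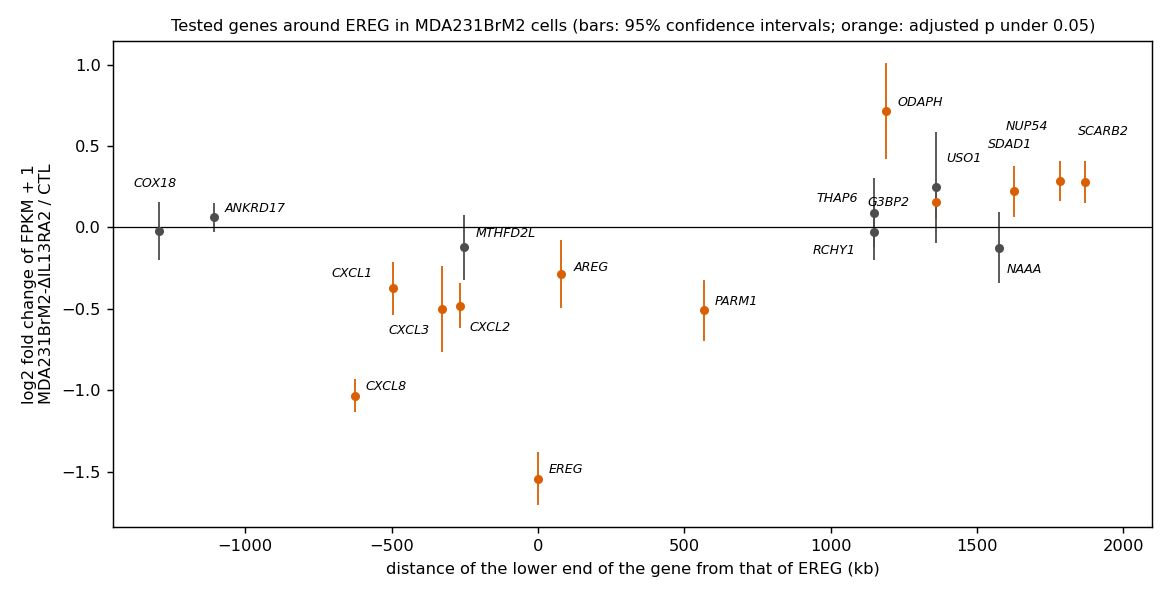
Log2(FPKM + 1) difference of the tested genes within 2000 kb of *EREG*, for MDA231BrM2-ΔIL13RA2 against MDA231BrM2-CTL, with 95% confidence intervals. The horizontal axis gives the distance (kb) of the start of each gene, on its own strand, from that of *EREG*. *EREG* at −1.54 and *CXCL8* at −1.03 lie lowest, and the 5 genes that rose lie at 1191 to 1869 kb.

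*EREG* and *AREG* lie on chromosome 4 between the CXC chemokine genes and *BTC*, and their starts are 80.0 kb apart. Distances here are between gene starts, each taken on its own strand. Of 17 other genes tested within 2000 kb of *EREG*, 5 rose and 5 fell, with a median of −0.02. Among all 11761 genes tested, 28.7% were called and 16.1% were called lower. The inner stretch was one-sided, as all 6 other genes tested within 1000 kb were below 0, with a median of −0.49, and 5 of them fell. The falls were *CXCL8* (−1.03), *CXCL3* (−0.50), *CXCL2* (−0.48) and *CXCL1* (−0.37), which encode neutrophil-attracting chemokines, and *PARM1* (−0.51). All 4 chemokine genes lie on one side of *EREG*, at 266 to 625 kb, and *PARM1* lies at 568 kb on the other. The rises were *ODAPH* (0.71), *NUP54* (0.29), *SCARB2* (0.28), *SDAD1* (0.22) and *G3BP2* (0.16), all at 1191 to 1869 kb on that other side. These genes were named, and the inner stretch was set, after their values were seen. *CXCL3* (1.63 to 0.849 FPKM) and *PARM1* (1.70 to 0.894) reached the minimum through MDA231BrM2-CTL only. *ODAPH* (0.871 to 2.05) reached it through the knockout only.

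Genes that release the ligands, relay the signal or end it were described in 4 hand-written lists, each beside a median of 0.01 over all genes. Calls were common in this comparison, at 28.7% of the 11761 genes tested, so counts in the lists are to be read beside that share. Of 12 genes of ligand release, 10 were tested and 2 rose, with a median of 0.08. These were *RHBDF2*, which encodes a partner of the sheddase ADAM17 (4.69 ± 0.135 to 5.71 ± 0.398 FPKM, 0.24, adjusted p = 0.0194), and *TIMP3*, a metalloprotease inhibitor (106 ± 0.501 to 136 ± 7.87, 0.35, adjusted p = 0.00101). No gene of that list fell. Of 31 adaptors and relay kinases, 29 were tested, 5 rose and 3 fell, with a median of 0.07. The largest rise was that of the kinase gene *MAP2K1* (28.5 ± 0.0848 to 37.7 ± 0.732 FPKM, 0.40), and the largest falls were *AKT1* (13.2 ± 0.711 to 11.4 ± 0.235, −0.20) and *MAP2K2* (42.6 ± 1.47 to 37.0 ± 0.888, −0.20). The neighbours of *MAP2K1* had a median of 0.37, and with it removed the gene was not called (0.03, adjusted p = 0.599, limma).

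Of 21 genes that attenuate or traffic the receptors, 20 were tested, 2 rose and 3 fell, with a median of 0.03. *LRIG1*, a transmembrane protein that promotes degradation of ERBB receptors, rose from 4.55 ± 0.303 to 6.88 ± 0.515 FPKM (0.51, adjusted p = 0.00144), and *RNF41*, a ubiquitin ligase for ERBB3, fell from 6.32 ± 0.470 to 4.71 ± 0.300 (−0.36, adjusted p = 0.00608). The phosphatase gene *PTPN12* (0.16) and the ubiquitin ligase gene *RNF126* (−0.16) moved less. Of 15 early response targets, 14 were tested, 2 rose and 3 fell, with a median of −0.00. *IER2* (0.20) and *MYC* (0.18) rose, while the transcription factors *ATF3* (−0.28) and *EGR1* (−0.22) fell. In each of the last 3 lists both directions occurred. The calls of *TIMP3*, *MAP2K2*, *LRIG1*, *RNF41* and *ATF3* held in all alternatives. That of *PTPN12* was lost in 9 of 17, of *EGR1* in 6, of *RHBDF2*, *AKT1* and *MYC* in 4 each, and of *RNF126* and *IER2* in 2 each, among them the omission of single libraries, with adjusted p up to 0.131.

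**Figure D3:**
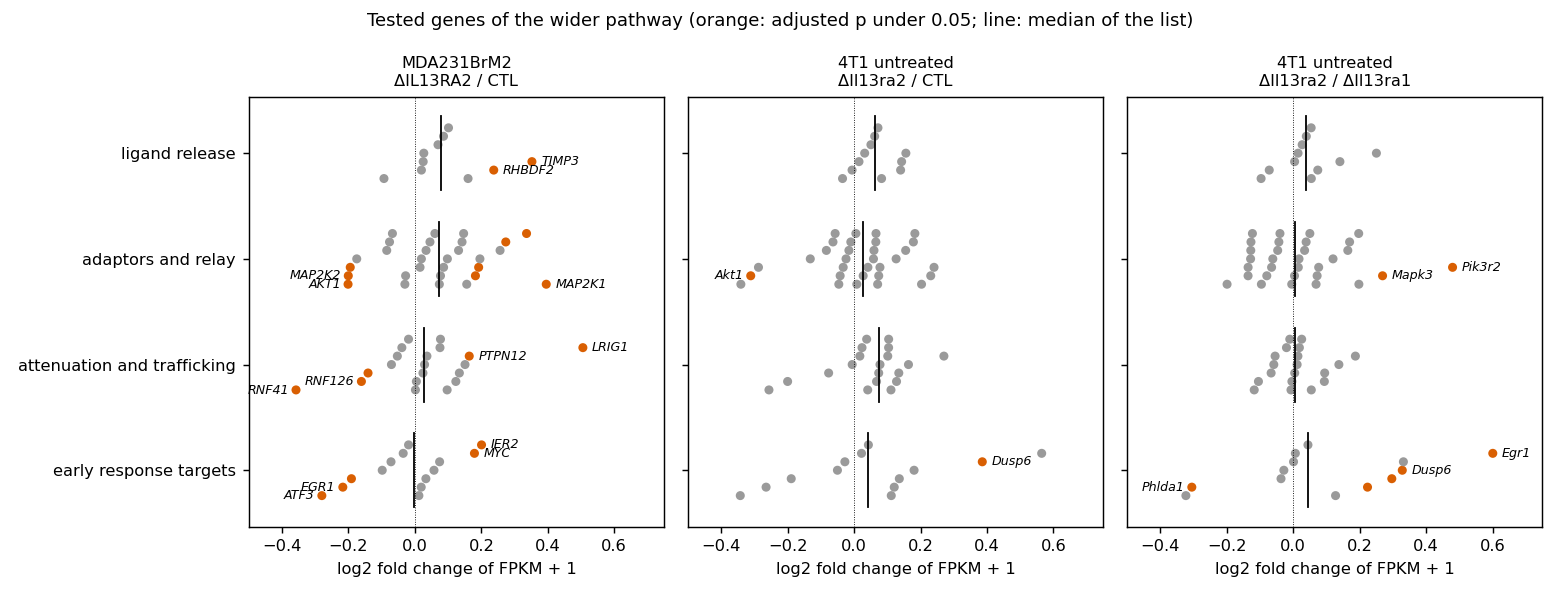
Log2(FPKM + 1) difference of each tested gene (points) in 4 lists of the EGF receptor pathway, for MDA231BrM2-ΔIL13RA2 against its control, untreated 4T1-ΔIl13ra2 against its control and untreated 4T1-ΔIl13ra2 against 4T1-ΔIl13ra1; lines mark list medians, and genes with an adjusted p under 0.05 are colored. The medians lie between −0.00 and 0.08, and *LRIG1* at 0.51 is the largest rise in the human comparison.

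**Figure D4:**
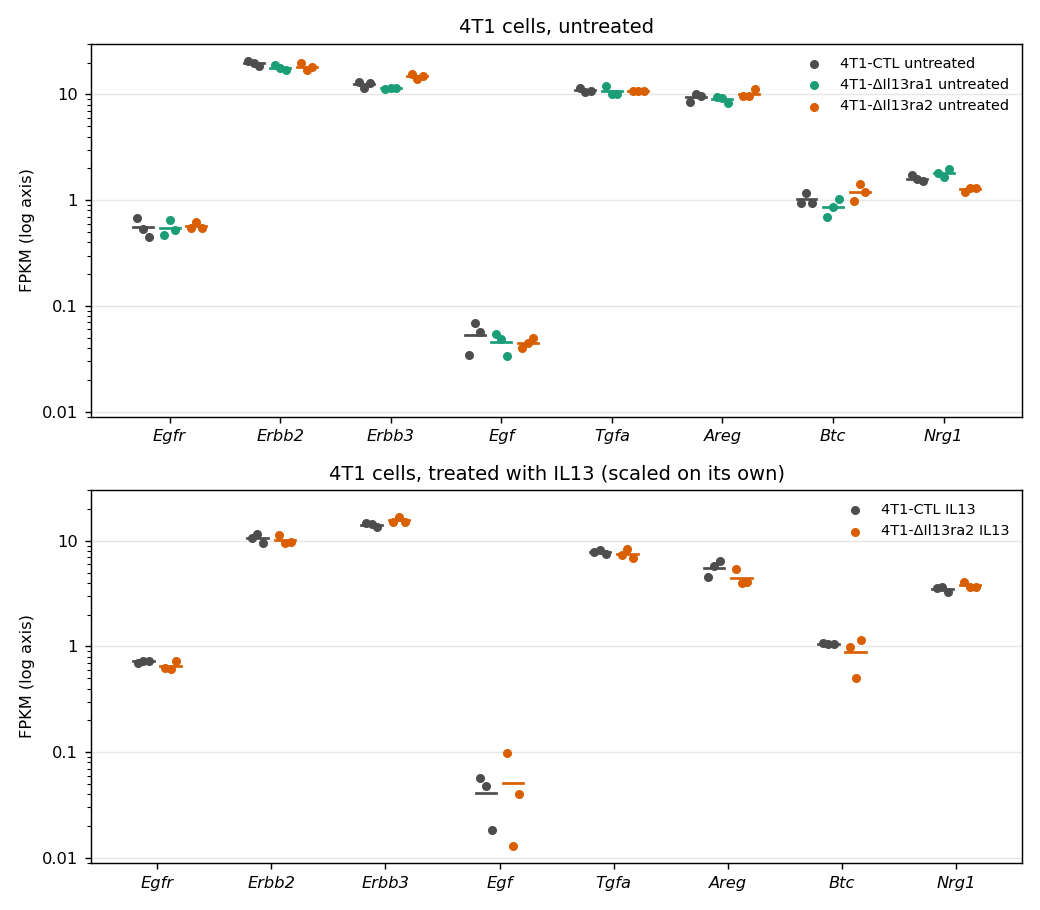
FPKM of 8 mouse genes in each 4T1 library (points, log axis) with the mean of each group of 3 as a bar; *Ereg* had 0 reads throughout and is not drawn. Untreated *Erbb3* was 14.1 to 15.5 in 4T1-ΔIl13ra2, above the 11.4 to 13.1 of 4T1-CTL and the 11.3 to 11.6 of 4T1-ΔIl13ra1.

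In 4T1 cells *Ereg* had 0 reads in all 15 libraries, which allows up to 0.0331 to 0.0471 FPKM (3 reads, counting error only). The gene that fell most in the human comparison could therefore not be followed in mouse. *Egfr* was low in every group, between 0.446 and 0.733 FPKM on 87 to 175 reads per library. *Egf* was at or under 0.0989 FPKM. Of the wider family, *Hbegf* was again the most abundant EGFR ligand, at 46.8 to 58.2 FPKM untreated and 88.6 to 97.2 with IL13, and *Erbb4* and *Nrg3* had no read.

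Untreated and IL13-treated 4T1-CTL are given side by side without a test, since IL13 and table cannot be told apart. *Erbb2* was at 20.8, 20.0 and 18.6 FPKM untreated and at 10.6, 11.6 and 9.47 with IL13. *Nrg1* was at 1.72, 1.58 and 1.51 untreated and at 3.57, 3.62 and 3.30 with IL13. *Areg* was at 8.42, 10.2 and 9.76 untreated and at 4.54, 5.75 and 6.40 with IL13. *Erbb2* and *Areg* were thus lower, and *Nrg1* higher, in every IL13-treated library than in any untreated one. *Tgfa* was at 11.5, 10.6 and 10.7 untreated and at 7.88, 8.13 and 7.50 with IL13. *Erbb3* lay between 11.4 and 13.1 in the 3 untreated libraries and was at 14.6, 14.3 and 13.3 with IL13. None of these 5 genes overlapped between the tables, whereas *Btc*, the sixth member at a mean of at least 1 FPKM, did. Groups without overlap occurred in 60.5% of 11186 genes at that minimum, so it was common here. *Erbb3* headed the IL13-treated order, and its range did not overlap that of *Erbb2* there.

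The second comparison asked what targeting *Il13ra2* did without added IL13. No member passed the test in untreated 4T1-ΔIl13ra2 against 4T1-CTL. Of the 9 members 6 were tested and 0 were called by limma, against 0.714% of 11197 genes. At an unadjusted p under 0.05 there were 2, *Erbb3* and *Nrg1*, against 17.7% of all genes. Voom on the recovered reads called 1 of the 6, and 395 of 11197 genes in all. *Erbb3* (ENSMUSG00000018166, GRCm38 chr10:128567523-128589652) lay between 11.4 and 13.1 FPKM in the 3 control libraries and had 15.5, 14.1 and 15.0 in 4T1-ΔIl13ra2. The groups did not overlap, and the difference was 0.23 (SE 0.0675, 95% confidence interval 0.08 to 0.39, adjusted p = 0.132 by limma and 0.0470 by voom). *Nrg1*, which encodes its ligand, had 1.72, 1.58 and 1.51 FPKM in the control libraries and 1.18, 1.31 and 1.31 in 4T1-ΔIl13ra2. These groups also stood apart, the other way (−0.20, SE 0.0855, adjusted p = 0.273, limma; voom 0.0940). Groups without overlap, seen in 2 of the 6, occurred in 26.2% of all genes tested.

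The other members overlapped between untreated 4T1-CTL and 4T1-ΔIl13ra2. *Erbb2* was at 20.8, 20.0 and 18.6 FPKM against 19.7, 16.9 and 18.1 (−0.11, 95% confidence interval −0.27 to 0.04). *Tgfa* was at 11.5, 10.6 and 10.7 FPKM against 10.8, 10.9 and 10.7 (−0.02, 95% confidence interval −0.15 to 0.11). *Areg* was at 8.42, 10.2 and 9.76 FPKM against 9.61, 9.60 and 11.3 (0.10, 95% confidence interval −0.10 to 0.29). The interval of *Tgfa* leaves out a fall of the size of that of *TGFA* in MDA231BrM2 (−0.69), but the human and mouse differences were not tested against each other. *Btc* was at 0.940, 1.16 and 0.952 FPKM against 0.988, 1.44 and 1.20 (0.13, 95% confidence interval −0.12 to 0.37).

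4T1-ΔIl13ra1 was compared with the same 3 control libraries, so the comparisons of the 2 knockouts with 4T1-CTL are not independent. Of the 9 members 5 were tested and 0 were called by limma or by voom, against 0.00896% of 11156 genes. None had an unadjusted p under 0.05, against 10.1% of all genes. *Erbb3* was at 11.3, 11.4 and 11.6 FPKM in 4T1-ΔIl13ra1, its means being 12.5 ± 0.913 in the control and 11.4 ± 0.122 in the knockout (−0.11, 95% confidence interval −0.26 to 0.03, adjusted p = 0.528). *Nrg1* was at 1.82, 1.66 and 1.98 FPKM (0.11, 95% confidence interval −0.08 to 0.31, adjusted p = 0.620). Both overlapped the control, as did *Erbb2* at 18.9, 18.0 and 16.9, *Tgfa* at 11.9, 10.2 and 10.2, *Areg* at 9.44, 9.35 and 8.27 and *Btc* at 0.700, 0.869 and 1.03.

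Set directly against each other, the 2 untreated knockouts differed in *Erbb3*. *Erbb3* was at 15.5, 14.1 and 15.0 FPKM in 4T1-ΔIl13ra2 and at 11.3, 11.4 and 11.6 in 4T1-ΔIl13ra1. The groups were apart, and the means of 14.9 ± 0.680 and 11.4 ± 0.122 (SD, n = 3 each) differed 1.30-fold, a difference of 0.35 (SE 0.0462, 95% confidence interval 0.24 to 0.46, adjusted p = 0.0112, limma). *Erbb3* was the 1 member called of 6 tested, against 4.75% of 11211 genes called and 2.55% called higher. The call was lost without the third library of 4T1-ΔIl13ra1 (adjusted p = 0.0535), without the third of 4T1-ΔIl13ra2 (0.0686) and with no minimum FPKM (0.0615), and voom gave 0.000104. *Nrg1* stood apart the other way, at 1.18, 1.31 and 1.31 FPKM against 1.82, 1.66 and 1.98. Its difference of −0.31 (SE 0.0794, 95% confidence interval −0.50 to −0.13) missed the threshold (adjusted p = 0.0687, limma) and passed it in 5 alternatives, voom among them (−0.51, adjusted p = 0.00269). *Areg* was the third member whose groups did not overlap (0.16, adjusted p = 0.272), which was so for 29.7% of all genes tested. *Btc* (0.24, 95% confidence interval −0.02 to 0.50), *Erbb2* (0.02) and *Tgfa* (0.01) overlapped. Immune markers summed to 4.77 to 5.28 FPKM in 4T1-ΔIl13ra2 and 3.28 to 4.17 in 4T1-ΔIl13ra1, 2 of 5 being at a mean of at least 1 (*Cd68* and *Csf1r*) and *Ptprc* and *Cd3e* at or near 0. Epithelial markers summed to 2224 to 2306 and 2108 to 2134, and mesenchymal markers to 452.3 to 476.2 and 431.1 to 450.2. The higher mesenchymal sum came from *Fn1* (means of 319.7 and 287.1), with *Vim* lower (118.8 and 126.5) and *Sparc* level (29.5 and 29.2). Their part in the difference of *Erbb3* was not tested.

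**Figure D5:**
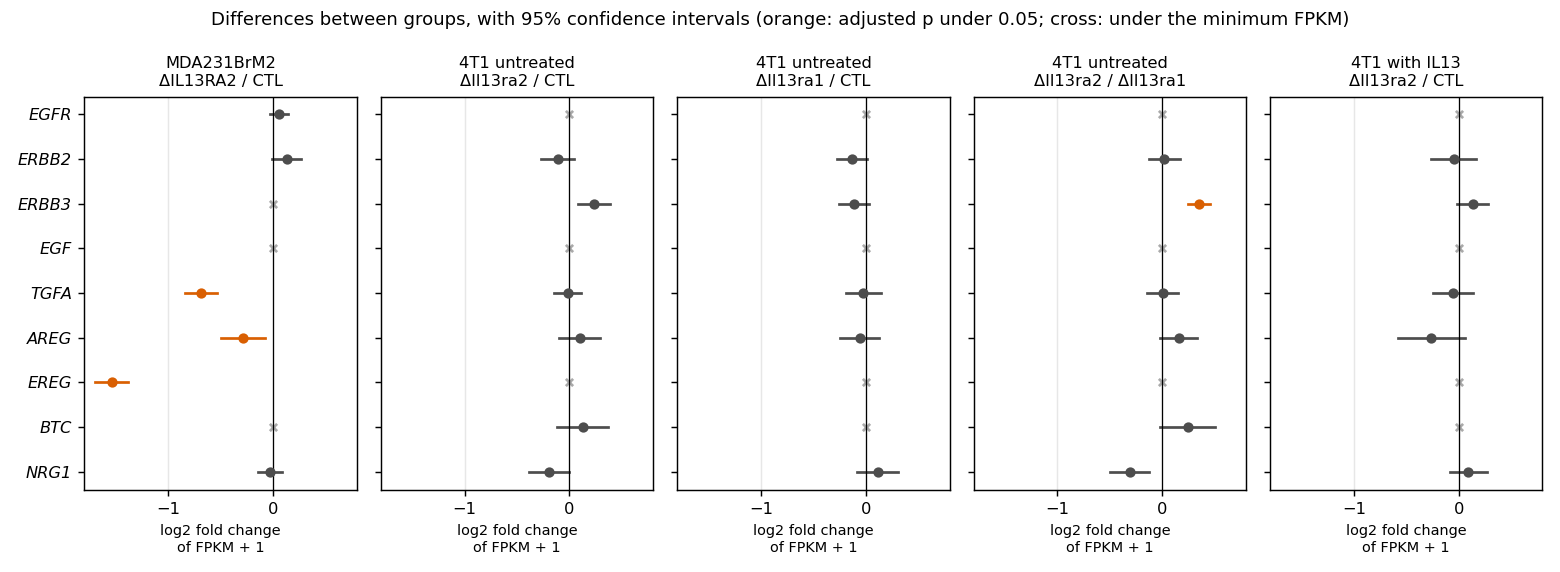
Log2(FPKM + 1) difference of each tested member with its 95% confidence interval in 5 comparisons; orange marks an adjusted p under 0.05 and a cross a member under the minimum. *EREG*, *TGFA* and *AREG* lie below 0 in MDA231BrM2-ΔIL13RA2, and *Erbb3* at 0.35 is the mouse member past the threshold.

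With IL13 in the medium, the condition in which 4T1 cells express *Il13ra2*, no member passed the test between 4T1-ΔIl13ra2 and 4T1-CTL. Of the 9 members 5 were tested and 0 were called by limma or by voom, against 0.529% of 11155 genes, and none had an unadjusted p under 0.05, against 23.0% of all genes. One library, the second of 4T1-ΔIl13ra2, stood apart from the rest of its table, with 274 genes at a single read against 1882 to 2218 in the others. *Erbb3* had 14.6, 14.3 and 13.3 FPKM in the control libraries and 14.9, 16.6 and 15.1 in 4T1-ΔIl13ra2. The groups did not overlap (0.13, 95% confidence interval −0.01 to 0.28, adjusted p = 0.250, and 0.09, adjusted p = 0.438, without the library that stood apart). *Nrg1* had 3.57, 3.62 and 3.30 FPKM in the control libraries and 4.11, 3.63 and 3.67 in 4T1-ΔIl13ra2. These did not overlap either, but only just (0.09, adjusted p = 0.488, and 0.12, adjusted p = 0.430, without that library). Summed mesenchymal markers were 187.3 to 214.5 FPKM in 4T1-CTL and 281.1 to 305.6 in 4T1-ΔIl13ra2, and summed epithelial markers 2527 to 2758 and 2229 to 2280. The mesenchymal sum moved with *Fn1* alone (means of 177.4 and 266.1), while *Vim* was level (20.1 and 20.4) and *Sparc* lower (6.53 and 5.61). Means of *Krt8* (455.4 and 312.6), *Krt18* (396.9 and 280.1), *Cldn4* (1391 and 1296) and *Krt19* (76.2 and 64.9) were lower in the knockout. *Cdh1* was level (174.9 and 174.2), and *Epcam* (122.5 and 132.7) and *Cldn7* (0.384 and 0.832) were higher. Groups without overlap, as in *Erbb3* and *Nrg1*, 2 of the 5 members tested, occurred in 32.8% of all genes tested.

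The EGFR ligands of IL13-treated cells overlapped between 4T1-CTL and 4T1-ΔIl13ra2. *Areg* was at 4.54, 5.75 and 6.40 FPKM against 5.38, 3.97 and 4.07 (−0.26, 95% confidence interval −0.58 to 0.06, adjusted p = 0.291, and −0.20, adjusted p = 0.493, without the library that stood apart). *Tgfa* was at 7.88, 8.13 and 7.50 FPKM against 7.31, 8.41 and 6.84 (−0.06, 95% confidence interval −0.25 to 0.13, adjusted p = 0.698, and −0.13, adjusted p = 0.324, without it). *Btc*, under the minimum, was at 1.08, 1.06 and 1.05 FPKM against 0.987, 0.507 and 1.16, its lowest value coming from that library. *Erbb2* was at 10.6, 11.6 and 9.47 FPKM against 11.4, 9.57 and 9.66 (−0.05, adjusted p = 0.786, and −0.01, adjusted p = 0.978, without it).

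Whether the effect of targeting *Il13ra2* differed with and without IL13 was tested as an interaction over 12 libraries. A scale factor between the tables nearly cancels there at high FPKM. At low FPKM, as for the neuregulin genes, it cancels only in part, because 1 was added before the log. Of the 9 members 6 were tested and 0 were called by limma or by voom, against 0.996% of 11242 genes. *Nrg1* was the 1 member with an unadjusted p under 0.05, against 15.5% of all genes. Its 4T1-ΔIl13ra2 effect was −0.20 untreated and 0.09 with IL13, a difference of 0.29 (95% confidence interval 0.07 to 0.51, adjusted p = 0.194, limma). Without the library that stood apart the difference was 0.32 (adjusted p = 0.184). The neuregulin gene *Nrg2*, outside the 9, was at 3.01, 2.77 and 2.51 FPKM in untreated 4T1-CTL and at 2.07, 1.72 and 2.28 in 4T1-ΔIl13ra2. With IL13 it was at 0.932, 0.634 and 0.746 and at 1.21, 1.22 and 1.03. *Nrg2* therefore lay lower in the knockout untreated and higher with IL13, without overlap in either. Groups without overlap occurred in 26.2% and 32.8% of all genes tested there. Untreated 4T1-ΔIl13ra1 was also lower than the control, at 2.57, 2.22 and 1.93 FPKM (−0.22), and 4T1-ΔIl13ra2 differed from it by −0.10, neither called. With IL13 *Nrg2* was under the minimum, which it reached over the 12 libraries through the untreated groups. Its interaction was 0.60 (SE 0.138, adjusted p = 0.0626, limma). It passed the threshold in 2 of 22 alternatives (adjusted p from 0.0281 to 0.176 over all of them) and was 1.03 by voom (adjusted p = 0.0686). *Areg* (−0.36, adjusted p = 0.349), *Btc* (−0.27, adjusted p = 0.498), *Erbb3* (−0.10, adjusted p = 0.633), *Erbb2* (0.07) and *Tgfa* (−0.04) did not pass the test, and *Btc* was at −0.12 without that library.

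Few genes of the wider pathway were called in 4T1. In untreated 4T1-ΔIl13ra2 against 4T1-CTL the lists had medians of 0.03 to 0.07, beside −0.01 over all genes. In the lists 1 gene fell and 1 rose, where 0.714% of all genes tested were called. The kinase gene *Akt1* fell from 161 ± 6.62 to 130 ± 4.82 FPKM (−0.31, adjusted p = 0.0486), and *Dusp6*, a phosphatase that restrains ERK, rose from 23.8 ± 1.28 to 31.4 ± 0.185 (0.39, adjusted p = 0.0258). Both calls were lost on omission of most single libraries (adjusted p up to 0.213 and 0.120). Between the 2 knockouts 4.75% of all genes tested were called. Higher in 4T1-ΔIl13ra2 were *Pik3r2* (0.48), *Mapk3* (0.27) and 4 early response targets, *Egr1* (0.60), *Dusp6* (0.33), *Junb* (0.30) and *Atf3* (0.22), while *Phlda1* was lower (−0.31). The last set shares its 4T1-ΔIl13ra2 libraries with the comparison before it, *Junb* and *Atf3* were named after their values were seen, and of the 5 others none kept its call in every alternative (adjusted p up to 0.170). In 4T1-ΔIl13ra1 against 4T1-CTL, in IL13-treated 4T1 and in the interaction, limma called 0 genes of the 4 lists. In these 3 comparisons 11 genes of ligand release, 31 of relay, 19 of attenuation and 12 of early response were tested. At an unadjusted p under 0.05 the lists held, in that order, 1, 3, 2 and 3 genes in the first of these, against 10.1% of all genes. They held 1, 6, 3 and 2 in the second, against 23.0%, and 0, 3, 2 and 5 in the third, against 15.5%.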

How the data were processed

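The values used were FPKM as deposited by the authors (3 tables, processed at Novogene), with HISAT2 2.0.5, featureCounts 1.5.0-p3, hg38 and mm10 named in the submitters' processing notes. Reads per gene were recovered from the steps of FPKM times gene length (whole to within 0.1 read). Groups followed the sample labels. Members and gene lists were chosen with earlier results of these data known. Within a table, log2(FPKM + 1) of genes with a mean of at least 1 FPKM was compared with limma 3.58.1 (mean-variance trend, robust) under R 4.3.3, files being read with the data.table package (1.17.8), and Benjamini-Hochberg adjustment ran over all genes tested (threshold 0.05). Exact permutation tests were two-sided. Voom on the recovered reads was an alternative, as were TPM, other pseudocounts and minimums, quantile normalization, array weights, removal of the median of 25 neighbours on each side, and omission of each library. Voom without a minimum was added after seeing the data. The procedure was tested on simulated data. All 9 members were named, and of each pathway list the 2 largest rises and 2 largest falls with groups apart. Some genes under this rule or in a marker list are not reported here. Mouse gene coordinates matched an annotation of GRCm38 for 9 of 9 members. Plots used Python 3.11.15 and matplotlib 3.10.9.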

Additional observations from a re-analysis of the deposited data

Results flagged for a closer look

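*Erbb3* was singled out because the 2 untreated knockouts differed from each other in a direct test. Relative to the shared 4T1-CTL libraries, *Erbb3* was higher by 0.23 in 4T1-ΔIl13ra2 and at −0.11 in 4T1-ΔIl13ra1, neither past the threshold. The difference between the knockouts was 0.35 on the log2(FPKM + 1) scale (adjusted p = 0.0112, limma). The groups did not overlap, as in 29.7% of all genes tested, and the call was lost in 3 of 18 alternatives (adjusted p up to 0.0686).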

How the results depend on the processing

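Over 34 tests of members, 567 of 619 alternative values kept their direction and side of the threshold, 15 lost a call, 10 gained one and 27 changed sign. *EREG* and *TGFA* in MDA231BrM2-ΔIL13RA2 kept their calls in all 16 alternatives each that could test them. They and *AREG* are under a minimum mean of 5 FPKM, which left 0 members called there. Untreated 4T1-ΔIl13ra2 against 4T1-CTL had 1 member called (*Erbb3*) by voom with the minimum (395 of 11197 genes called) or without it (583 of 24531). Against 4T1-ΔIl13ra1, 0 members were called without a minimum and 0 to 1 when single libraries were left out. There were 2 (*Erbb3* and *Nrg1*) on TPM (991 of 13299 genes called) and without trend and robust estimation (254 of 11211). The same 2 were called with array weights (884 of 11211) and by voom with the minimum (1096 of 11211) or without it (1166 of 24830). The causes of these changes were not tested beyond the numbers of genes and libraries.

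Sign changed only for differences that were never called. On TPM, *NRG1* was 0.028 in MDA231BrM2-ΔIL13RA2, *Tgfa* 0.022 in untreated 4T1-ΔIl13ra2, *Tgfa* 0.082 and *Areg* 0.043 in 4T1-ΔIl13ra1, *Erbb2* 0.050 and *Tgfa* 0.037 with IL13, *Erbb2* −0.047 and *Tgfa* −0.060 between the knockouts, and *Tgfa* 0.015 and *Hbegf* 0.0080 in the interaction. With neighbours removed, *Tgfa* was 0.013 with IL13 and 0.030 in the interaction, and *Erbb2* −3.51e-05 between the knockouts. *Tgfa* between the knockouts was −0.0062 by voom without a minimum, and *Erbb2* in the interaction −0.0063 with array weights. With single libraries left out, *Tgfa* ran from −0.037 to 0.018 in untreated 4T1-ΔIl13ra2, from −0.093 to 0.014 in 4T1-ΔIl13ra1, from −0.13 to 0.0017 with IL13, from −0.030 to 0.076 between the knockouts and from −0.11 to 0.018 in the interaction, and *Erbb2* from −0.12 to 0.020 with IL13, from −0.033 to 0.070 between the knockouts and from −0.0053 to 0.13 in the interaction.

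The number of all genes called ran, over alternatives other than single libraries left out, from 2237 to 4548 in MDA231BrM2 (3373 as reported), from 5 to 583 (80) in untreated 4T1-ΔIl13ra2, from 0 to 33 (1) in 4T1-ΔIl13ra1, from 3 to 1536 (59) with IL13, from 38 to 1166 (533) between the knockouts and from 38 to 609 (112) in the interaction. TPM turned the human calls from 1485 higher and 1888 lower to 2394 and 1368, and those between the knockouts from 286 and 247 to 184 and 807. On TPM the median of all genes moved to 0.06 in MDA231BrM2-ΔIL13RA2 and to 0.10 in 4T1-ΔIl13ra1. Same-numbered libraries were at most weakly alike, their deviations correlating at −0.11 to 0.17. Between the untreated knockouts each library was most like its same-numbered one (0.134, 0.0698 and 0.0526). In the other comparisons this held for some libraries only. With a replicate block 3 members were called in MDA231BrM2, 1 between the knockouts and 0 elsewhere, as without it, and all genes called numbered 3187, 143, 0, 28, 558 and 102 in the same order. The block ended the call of *PTPN12* (adjusted p = 0.0526). *Egf*, *BTC* and *Ereg* had too few reads for differences to be detectable.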

Other observations

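Genes whose levels ran most like those of a receptor over the libraries of a table are given as a description, by Pearson's r on log2(FPKM + 1), without a test, since the libraries share groups and scaling. In MDA231BrM2 (6 libraries, 10340 genes compared) *EGFR* was most like *ZDHHC3* (0.993), *ZMYM3* (0.988) and *TRIML2* (0.985), and *ERBB2* most like *ARHGAP32* (0.986), *SS18L1* (0.983) and *DENND3* (0.982). In untreated 4T1 (9 libraries, 9894 genes) *Erbb2* was most like *Btn1a1* (0.973), *Scap* (0.973) and *Srf* (0.962), and *Erbb3* most like *B4galt1* (0.970), *Klf9* (0.968) and *Ccl5* (0.968). With IL13 (6 libraries, 9839 genes) *Erbb2* was most like *Kif1c* (0.975), *Shroom3* (0.971) and *Scin* (0.965), and *Erbb3* most like *Ttll7* (0.998), *Zfp609* (0.995) and *Qrich1* (0.995). No gene was named for the same receptor in both mouse tables.

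The chemokine genes beside *Ereg* moved in mouse without *Ereg* being read. In IL13-treated 4T1-ΔIl13ra2 against 4T1-CTL, *Cxcl2* rose by 0.96 (14.5 to 29.2 FPKM), *Cxcl3* by 0.81 (18.4 to 32.9) and *Cxcl5* by 0.73 (183 to 304), with adjusted p of 0.00870, 0.00702 and 0.0289 (limma), while *Cxcl1* (0.33, adjusted p = 0.106) did not pass and 0 of the other genes tested within 2000 kb fell. These IL13 values include the second 4T1-ΔIl13ra2 library, which stood apart. Of all 11155 genes tested with IL13, 0.529% were called, and 22 of 11141 were called without that library. Untreated, *Ppbp*, another CXC chemokine gene of the cluster, fell by 0.59 in 4T1-ΔIl13ra2 (1.58 to 0.717 FPKM, adjusted p = 0.0473, limma). *Ppbp* reached the minimum through 4T1-CTL only, and its call was just past the threshold. Untreated *Cxcl5* (−0.30, adjusted p = 0.189, limma) and *Cxcl1* (0.14, adjusted p = 0.351) did not pass. Against the same control libraries, *Ppbp* was also lower in 4T1-ΔIl13ra1 (−0.50, 1.58 to 0.831 FPKM, adjusted p = 0.290, limma). So was *Cxcl5* (−0.22, adjusted p = 0.438), and neither was called, so lower *Ppbp* was not particular to 4T1-ΔIl13ra2. In the human comparison *CXCL2* and *CXCL3* fell. The human and mouse differences were not tested against each other.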
